A study of Mus musculus with 8 samples.

Results

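The mRNAs of 10 genes of the *Sox* family were followed in tibialis anterior (TA) muscles of mice in which *Uba1* was knocked down. *Sox4*, *Sox5*, *Sox6*, *Sox7*, *Sox8*, *Sox9*, *Sox10*, *Sox11*, *Sox17* and *Sox18* were taken by name from the 41709 genes listed. These genes were selected on measured values of the same comparison, in which *Sox9* had been seen to be lower, so their differences between the groups are given as descriptions. No p-value is given for a member, and the counts of members past a threshold are not read as support. The family has 10 further genes in mice, which serve here for comparison.

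The samples were 8 whole TA muscles of 3-month-old male C57BL/6J mice, collected 7 days after electroporation. In each of 4 mice, the muscle of one leg received a pool of siRNAs that target *Uba1* (siUBA1) and the contralateral muscle a pool of non-targeting siRNAs (siNT). *Uba1* encodes the main E1 enzyme, which activates ubiquitin before it is passed to other proteins. All siNT muscles carry the letter R and all siUBA1 muscles the letter L in the labels, so leg and siRNA cannot be told apart. The treatment tags name UBA1, UBA2, UBA3 and UBA4 for siUBA1 replicates 1 to 4, whereas the titles name UBA1 for all. The muscles were not sorted into cell types. A lower level of an mRNA can therefore come from fewer cells that express it or from less of it per cell, and these cannot be told apart.

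SOX proteins are transcription factors that bind DNA through an HMG box, a domain related to that of the sex-determining factor SRY, and bend the DNA they bind. They are divided into groups by the sequence of this box. SOXC factors (SOX4, SOX11) act in progenitor cells, and SOXD factors (SOX5, SOX6) lack a transactivation domain and work with partners. SOXE factors (SOX8, SOX9, SOX10) act in neural crest, glia and cartilage, and SOXF factors (SOX7, SOX17, SOX18) in blood and lymph vessels. In skeletal muscle, SOX6 is known for the repression of slow fibre genes in fast fibres, whereas most other members are known from the nerve, vessel and connective tissue cells that a whole muscle holds.

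The stretch of the HMG box that gives the family its name is shown to let the 10 members be compared. For each member, 60 bases of a coding exon are given from the codons of the conserved start of the box, read from the GENCODE M39 transcripts of GRCm39. Capitals mark the bases that differ from *Sox9* at the same position.
*Sox9* (chr11:112673729-112673788, plus strand): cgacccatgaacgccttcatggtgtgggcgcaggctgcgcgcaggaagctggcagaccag
*Sox8* (chr17:25789137-25789196, minus strand): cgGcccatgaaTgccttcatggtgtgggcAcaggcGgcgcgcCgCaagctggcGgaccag
*Sox10* (chr15:79047542-79047601, minus strand): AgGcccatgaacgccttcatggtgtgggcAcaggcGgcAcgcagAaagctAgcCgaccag
*Sox4* (chr13:29136765-29136824, minus strand): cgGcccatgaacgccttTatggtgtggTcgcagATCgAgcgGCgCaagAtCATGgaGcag
*Sox11* (chr12:27392198-27392257, minus strand): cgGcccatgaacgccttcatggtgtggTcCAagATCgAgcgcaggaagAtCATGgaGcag
*Sox7* (chr14:64181343-64181402, plus strand): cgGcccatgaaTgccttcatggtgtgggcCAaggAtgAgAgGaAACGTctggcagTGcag
*Sox17* (chr1:4563363-4563422, minus strand): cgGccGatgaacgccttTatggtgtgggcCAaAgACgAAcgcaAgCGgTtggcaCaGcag
*Sox18* (chr2:181313015-181313074, minus strand): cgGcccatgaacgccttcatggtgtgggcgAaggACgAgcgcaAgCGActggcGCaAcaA
*Sox5* (chr6:143786940-143786999, minus strand): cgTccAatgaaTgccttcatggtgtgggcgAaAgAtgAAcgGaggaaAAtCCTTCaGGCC
*Sox6* (chr7:115088938-115088997, minus strand): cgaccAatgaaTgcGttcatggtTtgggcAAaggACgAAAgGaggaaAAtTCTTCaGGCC
In this stretch, *Sox8* had 53 and *Sox10* 52 of the 60 bases in common with *Sox9*, and *Sox6* had 37. Across the 8 pairs of members within a group, 47 to 54 bases were the same (median 52), against 36 to 47 bases (median 41) across the 37 pairs from different groups. The longest run of identical bases anywhere in the transcripts of a pair was 48 bases, between *Sox4* and *Sox11*, followed by 44 bases between *Sox9* and *Sox10*. No pair shared an identical run as long as the 100-base reads.

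*Uba1* mRNA was at 60.6 ± 2.11 TPM (a transcript abundance scaled to transcript length and library size) in siNT muscles and at 15.9 ± 6.83 TPM in siUBA1 muscles (SD, n = 4 muscles each). Its log2FC was -1.98 (standard error 0.290), with an adjusted p of 0.0527 from limma with Benjamini-Hochberg adjustment, or 0.0278 with the mouse as a block, and it was lower in 4 of 4 mice. The muscle fibre genes *Mylk2* and *Cacna1s* averaged 766 and 328 TPM over the 8 muscles. The deposited TPM move in steps that correspond to whole reads or read pairs, from which about 46900000 to 48800000 were estimated in genes per muscle. Differences were fitted with limma on log2(TPM + 1), a scale that shrinks the changes of weakly expressed genes, across the 11530 genes that reached 1 TPM in 4 or more muscles. Of the 10 members, 6 passed this filter (*Sox4*, *Sox6*, *Sox7*, *Sox9*, *Sox17* and *Sox18*) and 4 did not (*Sox5*, *Sox8*, *Sox10* and *Sox11*). None of the 6 had an adjusted p under 0.05, which 0.026% of all genes tested had. The criterion of the study, a log2FC beyond 0.58 at an unadjusted P below 0.05, was met in the lower direction by 1 of the 6, *Sox9*, against 0.833% of all genes, and in the higher direction by 0 of the 6, against 0.442% of all genes. *Sox7* and *Sox9* were lower in all 4 mice, as were 2.98% of all genes, while *Sox17* and *Sox18* were higher in all 4 mice, as were 32.2% of all genes. Because the members were chosen from this comparison, nothing is read from these shares. The median log2FC of the 6 was 0.10, beside 0.11 for all genes tested. With median-ratio scaling of the TPM, which shifts the median of all genes to -0.0055, the median of the 6 was -0.01.

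**Figure D1:**
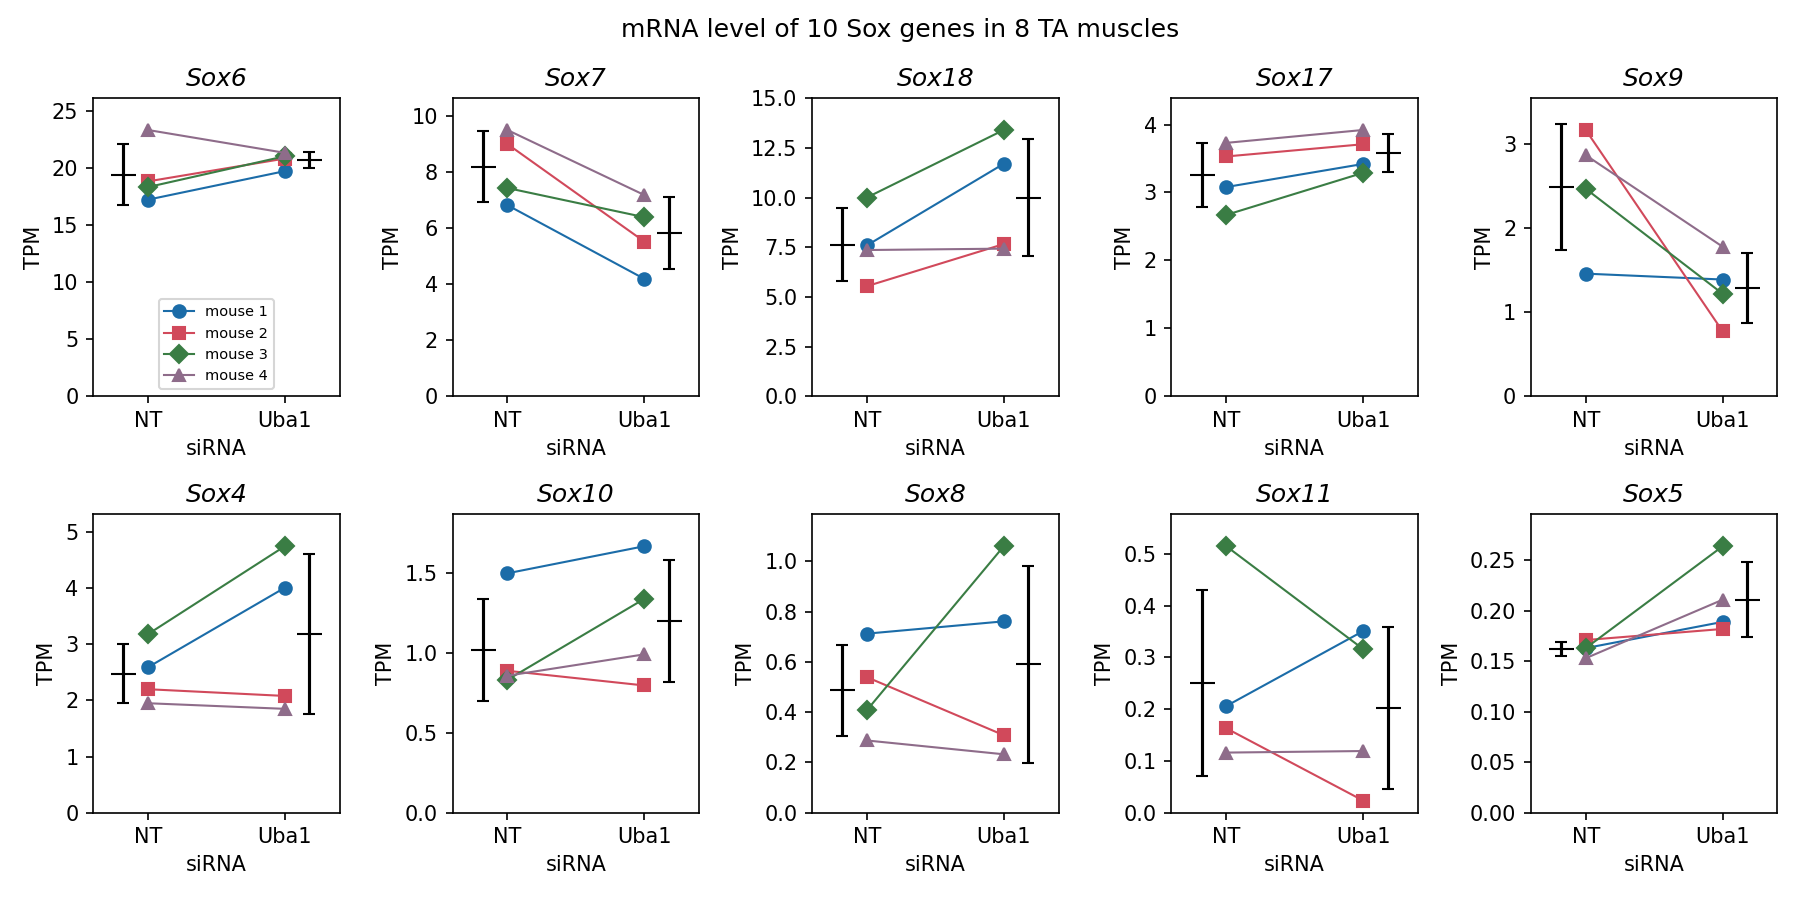
TPM (y axis, from 0, a separate scale for each gene) of the 10 members with NT and *Uba1* siRNAs (x axis). Each colour and marker is a mouse, lines join its 2 legs, and black bars give the mean ± SD of 4 muscles. The lines of *Sox7* and *Sox9* run downward in every mouse and those of *Sox5*, *Sox17* and *Sox18* upward, with *Sox9* of mouse 1 (1.46 and 1.39 TPM) and *Sox18* of mouse 4 (7.36 and 7.43 TPM) almost level.

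TPM allow levels to be compared between genes. In siNT muscles *Sox6* was the most abundant member (mean 19.4 TPM), above 75.8% of all genes tested. *Sox7* (8.19 TPM) and *Sox18* (7.63 TPM) came next, and the ranges of these 2 genes over the 4 siNT muscles overlapped. A lower step was formed by *Sox17* (3.25 TPM), *Sox9* (2.49 TPM) and *Sox4* (2.48 TPM), whose neighbouring ranges overlapped as well. *Sox10* (1.02 TPM) was below *Sox4* and above *Sox8* (0.486 TPM) without overlap. *Sox8*, *Sox11* (0.250 TPM) and *Sox5* (0.162 TPM) were at the lower end, again with overlapping neighbours. The 10 members together made up 45.4 ± 3.70 TPM in siNT muscles and 46.8 ± 4.73 TPM in siUBA1 muscles (SD, n = 4 each), so that their sum differed by less than the spread between muscles.

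*Sox9*, the master regulator of cartilage formation, lies on chromosome 11 of GRCm39 from 112673009 to 112678586 (plus strand). Its mRNA was at 1.46, 3.17, 2.47 and 2.87 TPM in siNT replicates 1 to 4, and at 1.39, 0.773, 1.22 and 1.78 TPM in siUBA1 replicates 1 to 4. It was lower in the siUBA1 leg of every mouse, yet the groups overlapped, because the siNT muscle of mouse 1 was within the range of the siUBA1 muscles. The mean fell from 2.49 ± 0.747 to 1.29 ± 0.418 TPM (SD, n = 4 each), 1.93 times lower, with a log2FC of -0.60 (standard error 0.186). Within mice the difference ranged from 1.05-fold in mouse 1 over 1.61-fold in mouse 4 and 2.03-fold in mouse 3 to 4.10-fold in mouse 2. The 2 muscles with the widest gap, those of mouse 2, held the highest *Sox9* level of the siNT group and the lowest of the siUBA1 group.

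The steps of the TPM correspond to 95, 203, 153 and 172 reads of *Sox9* in the siNT muscles and 85, 50, 73 and 112 reads in the siUBA1 muscles. At these counts, counting alone gives an SD of 8.01% in siNT muscles and 11.2% in siUBA1 muscles, against a measured SD between muscles of 30.0% and 32.4% of the mean. Counting error was thus the smaller part of the spread. The log2FC of *Sox9* stayed below 0 under all 16 alternatives tried and lay between -0.90, with a pseudocount of 0.1, and -0.48. It did not meet the criterion of the study without siNT replicate 2 (log2FC -0.50), without siNT replicate 4 (log2FC -0.54) or without siUBA1 replicate 2 (log2FC -0.48). A non-coding gene on the other strand, *BC006965*, shares 542 of the 4176 exon bases of *Sox9*. It was listed at 0.0222 to 0.143 TPM in the 8 muscles, and the library kit does not mark strand, so reads in the shared bases cannot be assigned to either gene.

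*Sox8* and *Sox10*, the other SOXE genes, were not lower in every mouse. *Sox10*, on chromosome 15 from 79039108 to 79049469 (minus strand), is needed for the Schwann cells that wrap nerve fibres. It was at 1.5, 0.889, 0.832 and 0.858 TPM in siNT muscles and at 1.67, 0.797, 1.34 and 0.992 TPM in siUBA1 muscles. The group means of 1.02 ± 0.319 and 1.20 ± 0.384 TPM (SD, n = 4 each) differed by less than the spread, and *Sox10* was higher in 3 of 4 mice. *Sox8*, on chromosome 17 from 25784634 to 25789726 (minus strand), encodes a SOXE factor found in glia and in satellite cells, the stem cells of muscle. Its level was 0.712, 0.539, 0.407 and 0.287 TPM in siNT muscles and 0.761, 0.308, 1.06 and 0.232 TPM in siUBA1 muscles, with means of 0.486 ± 0.182 and 0.591 ± 0.392 TPM (SD, n = 4 each). It was higher in 2 mice and lower in 2, and the siUBA1 muscles differed 4.58-fold among themselves. These TPM rest on 22 to 96 reads of *Sox8* per muscle. A difference in *Sox8* mRNA was not detectable beyond this spread. The study reported a higher level of the SOX8 protein after the knockdown without a matching mRNA change, from protein data that were not used here.

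Genes of the cartilage programme under SOX9, SOX5 and SOX6 were examined next, as a list of 17. *Matn1* and *Snorc*, markers of cartilage cells, were listed at 0 in all 8 muscles, and 5 of the 17 passed the filter on low values. None of the 5 passed the adjusted p (limma). *Col11a1* and *Col27a1*, 2 of the 5, were at 1 TPM or more in 2 and 1 siNT muscles, so they passed the filter through the siUBA1 muscles. The directions of the 5, and how many of them passed an unadjusted P or the criterion, are therefore not counted. Of the 15 genes above 0 in any muscle, 12 had a log2FC above 0 in the fit without a filter, beside 72.4% of all 21532 genes in that fit. *Comp*, which encodes a matrix protein of cartilage and tendon, was at 5.93 ± 4.21 TPM in siNT muscles and 8.95 ± 1.80 TPM in siUBA1 muscles (SD, n = 4 each; log2FC 0.72, adjusted p = 0.346 from limma). *Chad*, for the matrix protein chondroadherin, was at 5.65 ± 4.95 and 8.92 ± 3.40 TPM (SD, n = 4 each; log2FC 0.77, adjusted p = 0.379 from limma). *Col11a1*, a fibrillar collagen chain named here, like *Col27a1*, after its values were seen, was at 1.11 ± 0.607 and 2.66 ± 0.772 TPM (SD, n = 4 each; log2FC 0.82, adjusted p = 0.162 from limma). The summed TPM of the list ran from 8.43 to 32.3 in siNT muscles and from 23.6 to 32.6 in siUBA1 muscles (exact permutation test, two-sided, p = 0.143; adjusted over 9 lists, 0.643). *Comp* and *Chad* made up 42.9% to 74.4% of this sum, which thus largely follows these 2 genes. Within the siNT group, the muscle of mouse 1 had the lowest *Sox9* level and the highest sum of these genes (32.3 TPM), and replicate 2 the highest *Sox9* level and the lowest sum (8.43 TPM). Over the 8 muscles the deviations of *Sox9* and of this sum from their group means had a Pearson r of -0.71, or -0.58 for the sum without *Comp* and *Chad*. With the endothelial markers, whose sum was also highest in siNT replicate 1 (322 TPM), the r of *Sox9* was -0.70, and with the tendon markers -0.52. A sum for tendon markers, 105 to 243 TPM in siNT and 158 to 236 TPM in siUBA1 muscles, was also highest in siNT replicate 1 and lowest in siNT replicate 2, and its part in the *Sox9* difference was not tested.

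The 3 SOXF genes are known from endothelial cells, in which SOX18 and SOX7 take part in the forming of vessels and SOX17 in arteries. They differed from each other in direction. *Sox7*, on chromosome 14 from 64181006 to 64188352 (plus strand), was at 6.82, 9.0, 7.43 and 9.50 TPM in siNT muscles and at 4.19, 5.52, 6.39 and 7.18 TPM in siUBA1 muscles. The siUBA1 leg was lower in every mouse, with an overlap of the groups through the siNT muscle of mouse 1 and the siUBA1 muscle of mouse 4. The mean was 8.19 ± 1.27 TPM with siNT and 5.82 ± 1.28 TPM with siUBA1 (SD, n = 4 each). Its log2FC was -0.44 (standard error 0.15), and the mice differed by 1.63, 1.63, 1.16 and 1.32-fold. The log2FC of *Sox7* lay between -0.55 and -0.32 under the 17 alternatives and never met the criterion of the study.

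*Sox18*, on chromosome 2 from 181311629 to 181313438 (minus strand), encodes a factor that also starts the lymphatic fate of endothelial cells. Its level was 7.59, 5.54, 10 and 7.36 TPM in siNT muscles and 11.7, 7.66, 13.4 and 7.43 TPM in siUBA1 muscles. The siUBA1 leg was higher in each mouse, by 1.54, 1.38, 1.34 and 1.01-fold, while the groups overlapped widely. The log2FC of *Sox18* was 0.34 (standard error 0.207), and it lay between 0.20, without siUBA1 replicate 3, and 0.47, without siNT replicate 3. *Sox17*, on chromosome 1 from 4561151 to 4567784 (minus strand), was at 3.08, 3.53, 2.67 and 3.73 TPM in siNT muscles and at 3.42, 3.71, 3.29 and 3.92 TPM in siUBA1 muscles. It was higher in the siUBA1 leg of every mouse, by a log2FC of 0.11 (standard error 0.0956), which is close to the median of all genes tested and was 0.01 with median-ratio scaling and -0.01 with quantile normalization. Leaving out siNT replicate 3 gave 0.04, and leaving out siNT replicate 4 gave 0.17.

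Since the sum of the 3 SOXF genes differed by less than the spread between muscles (19.1 ± 1.52 and 19.4 ± 2.61 TPM; SD, n = 4 each), their proportions are given, which do not depend on the scaling of a muscle. *Sox7* made up 39%, 49.8%, 36.9% and 46.2% of the SOXF sum in siNT muscles and 21.7%, 32.7%, 27.7% and 38.8% in siUBA1 muscles, lower in each mouse. *Sox18* made up 43.4%, 30.7%, 49.8% and 35.7% in siNT muscles and 60.5%, 45.3%, 58.1% and 40.1% in siUBA1 muscles, higher in each mouse. The ratio of *Sox18* to *Sox7* was 1.11, 0.615, 1.35 and 0.774 in siNT muscles and 2.79, 1.39, 2.10 and 1.04 in siUBA1 muscles. As *Sox7* and *Sox18* were chosen from this comparison, the ratio is a description too.

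**Figure D2:**
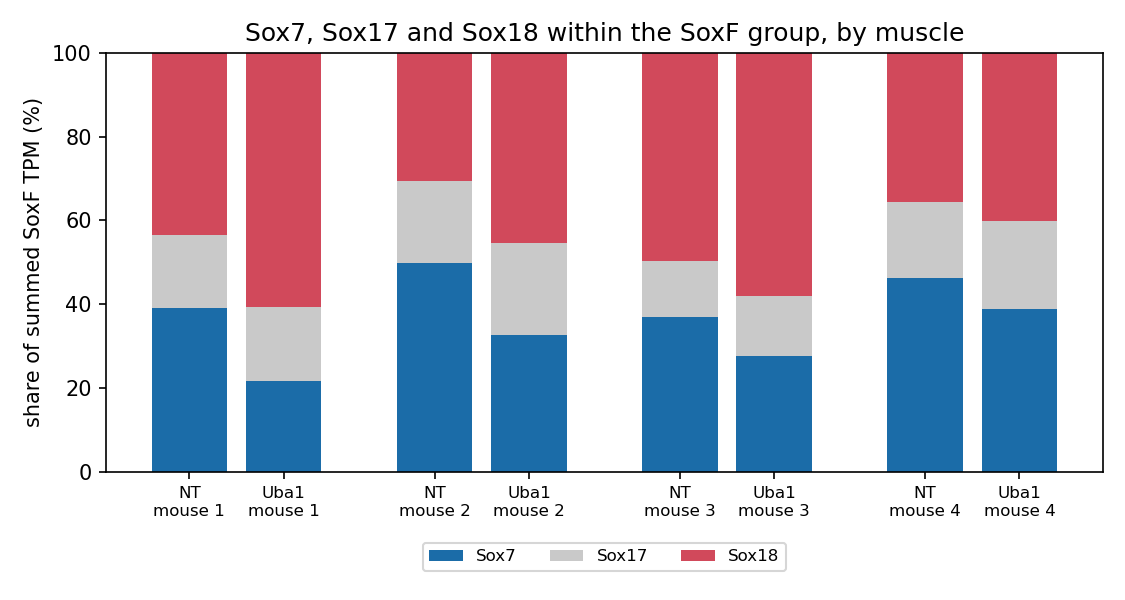
Share of the summed SOXF TPM (y axis, percent) taken by *Sox7*, *Sox17* and *Sox18* in each muscle (x axis, legs of a mouse side by side). The *Sox7* part is smaller and the *Sox18* part larger in the *Uba1* siRNA leg of each mouse, from 39% to 21.7% for *Sox7* in mouse 1.

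General markers of endothelial cells were examined beside the SOXF genes. Of the 17 markers listed, 16 passed the filter, 0 passed the adjusted p and 0 an unadjusted P under 0.05 (limma), which 18% of all genes tested had. Their median log2FC was 0.05, below the 0.11 of all genes. The sum of their TPM ranged from 231 to 322 in siNT muscles and from 259 to 303 in siUBA1 muscles (exact permutation test, two-sided, p = 0.8; adjusted over 9 lists, 0.971). *Cdh5*, for the adhesion protein of endothelial junctions, was at 51.5 ± 6.92 and 52.3 ± 6.10 TPM, and *Pecam1*, another junction protein, at 30.4 ± 2.65 and 30.1 ± 0.953 TPM (SD, n = 4 each; adjusted p = 0.911 and 0.926 from limma). *Prox1*, a known target of SOX18 in lymphatic cells that was named after its values were seen, was below the filter at 0.443 to 0.637 TPM in siNT and 0.450 to 0.865 TPM in siUBA1 muscles.

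**Figure D3:**
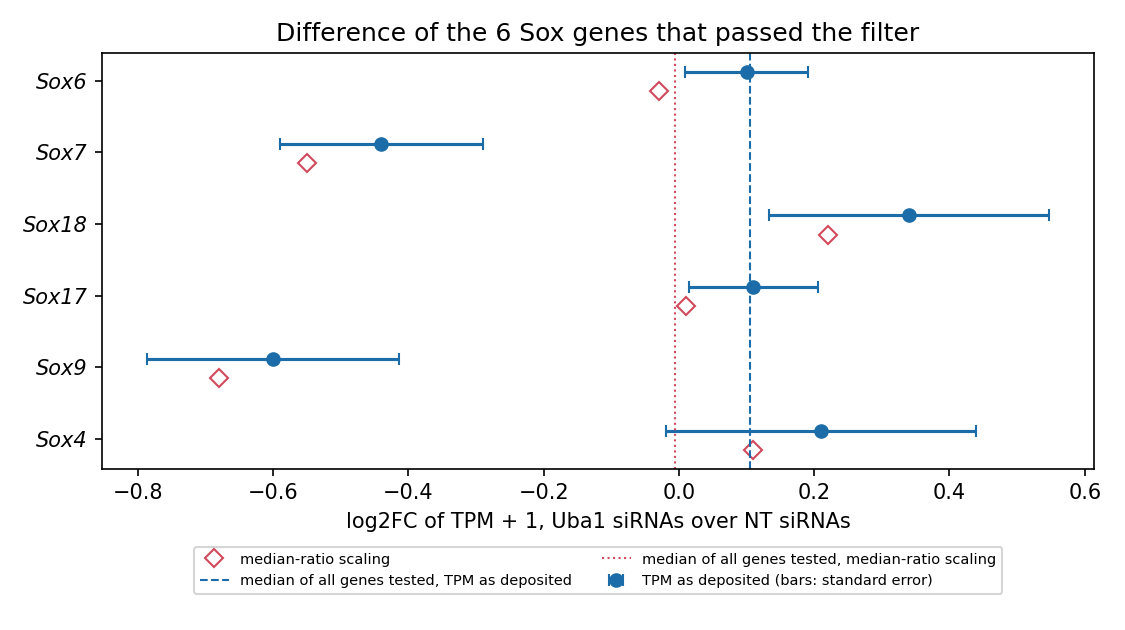
Differences of the 6 members that passed the filter, as log2FC of TPM + 1 (x axis, *Uba1* over NT siRNAs). Filled points are the fit on TPM as deposited with standard errors, open diamonds the fit after median-ratio scaling, and vertical lines the medians of all genes tested under each. *Sox9* (-0.60) and *Sox7* (-0.44) lie to the left of both medians under both scalings, and *Sox18* (0.34) to the right.

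*Sox6*, on chromosome 7 from 115070106 to 115638860 (minus strand), was at 17.2, 18.8, 18.3 and 23.3 TPM in siNT muscles and at 19.7, 20.8, 21.0 and 21.3 TPM in siUBA1 muscles. The siUBA1 muscles lay within the range of siNT muscles. Its log2FC of 0.10 (standard error 0.0910) was close to that of the median gene, and it turned to -0.03 with median-ratio scaling. With each muscle left out in turn, it lay between 0.04, without siNT replicate 1, and 0.18, without siNT replicate 4. *Sox6* rests on about 4390 to 5475 reads per muscle, for which counting alone gives an SD of 1.45% in siNT and 1.41% in siUBA1 muscles, against 13.8% and 3.43% measured. The genes of slow fibres, which SOX6 is known to hold down, were at 84.7 to 140 TPM in sum in siNT muscles and at 103 to 144 TPM in siUBA1 muscles (exact permutation test, two-sided, p = 0.657; adjusted over 9 lists, 0.971). Of the 9 that passed the filter, 0 passed the adjusted p and 0 an unadjusted P under 0.05 (limma), beside the 18% of all genes. *Atp2a2*, the calcium pump of slow fibres, was at 23.5 ± 4.39 and 23.4 ± 5.50 TPM, and *Myl3*, a slow myosin light chain, at 17.1 ± 7.19 and 27.8 ± 15.5 TPM (SD, n = 4 each; adjusted p = 0.967 and 0.446 from limma). An antisense non-coding gene at the *Sox6* locus, *Sox6os*, was at 2.57, 4.31, 4.61 and 3.77 TPM in siNT muscles and at 3.55, 1.83, 2.96 and 2.04 TPM in siUBA1 muscles, lower in 3 of 4 mice, and shares 261 exon bases with *Sox6*. The protein-coding gene *1110004F10Rik*, also on the other strand and at 27.6 to 32.5 TPM, shares 228 of the 16215 exon bases of *Sox6*, and reads in these shared bases cannot be assigned to one gene either.

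*Sox5*, the partner of SOX6 in cartilage, lies on chromosome 6 from 143774151 to 144727703 (minus strand). It was at 0.163, 0.171, 0.163 and 0.153 TPM in siNT muscles and at 0.189, 0.182, 0.264 and 0.211 TPM in siUBA1 muscles. All siUBA1 muscles were above all siNT muscles, at a level of 32 to 55 reads per muscle. The same was the case for 10.6% of the genes tested, but *Sox5* was below the filter and is not one of these genes. Of the genes tested, 81.84% had a log2FC above 0 with TPM as deposited. The SD of *Sox5* between siNT muscles was 4.37% of the mean, below the 16.8% that counting alone gives. The narrowness of the siNT group is therefore not a measure of the precision of its values.

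The SOXC members *Sox4* and *Sox11* were higher in mice 1 and 3 than in mice 2 and 4, in both legs. *Sox4*, a factor of progenitor and immune cells on chromosome 13 from 29132902 to 29137696 (minus strand), was at 2.59, 2.20, 3.18 and 1.95 TPM in siNT muscles and at 4.01, 2.08, 4.75 and 1.85 TPM in siUBA1 muscles. The siUBA1 leg was higher in mice 1 and 3, by 1.55 and 1.5-fold, and lower in mice 2 and 4. The log2FC of *Sox4* was 0.21 (standard error 0.229), and it lay between 0.03, without siUBA1 replicate 3, and 0.37, without siUBA1 replicate 4. *Sox11*, on chromosome 12 from 27384263 to 27392573 (minus strand), is a factor of embryonic neurons and other progenitors. It was at 0.206, 0.163, 0.515 and 0.116 TPM in siNT muscles and at 0.351, 0.0231, 0.316 and 0.119 TPM in siUBA1 muscles. As few as 3 reads and no more than 64 lie behind a value of *Sox11*, and mice 1 and 3 were again above mice 2 and 4 in both groups.

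To describe this spread between mice, the deviation of each member from its group mean was compared across the 8 muscles, which are 8 legs of only 4 mice and are not independent. *Sox4* varied together with *Sox18* (Pearson r = 0.90), *Sox8* (r = 0.86) and *Sox11* (r = 0.85), and *Sox11* with *Sox18* (r = 0.86). *Sox17* ran the other way, with r = -0.86 to *Sox11* and -0.80 to *Sox18*. On log2 values with the group means kept, *Sox17* with *Sox18* was at r = -0.40, *Sox11* with *Sox18* at 0.66 and *Sox4* with *Sox11* at 0.75. *Sox9* had an r between -0.28 and 0.54 with *Sox4*, *Sox7*, *Sox8*, *Sox10*, *Sox11*, *Sox17* and *Sox18*. High values of r were frequent for some members. Of the 11529 other genes tested, 9.46% had an r above 0.9 with *Sox4* and 3.49% with *Sox18*, but 0.156% with *Sox9*. The genes most like *Sox4* were *Vcan*, for the matrix proteoglycan versican (r = 0.995), *Src* (r = 0.993) and *Ehbp1l1* (r = 0.993). Among the genes most like *Sox18* were *Sh3d19* and *Zfp449* (r = 0.999 and 0.995), and those most like *Sox9* were *Glt28d2*, *Irf2bp2* and *Pxdc1* (r = 0.975, 0.967 and 0.951). For *Sox7* these were *Cacna1s*, *Fxr2* and *Wnt4* (r = 0.985, 0.985 and 0.979), for *Sox17* *Gm29323*, *Mylk2* and *Tcea3* (r = 0.984, 0.984 and 0.980), and for *Sox6* *Thap12*, *Ube4a* and *Mbnl1* (r = 0.990, 0.981 and 0.978). With the group means kept, the r of *Sox7* with its 3 genes was 0.769, 0.060 and 0.542, and that of *Sox9* with *Glt28d2* was 0.849, so the likeness to *Sox7* depends on removing the group means.

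The same comparison with lists of marker genes shows which markers the members varied with. *Sox10* and *Sox8* followed the summed TPM of Schwann cell markers most closely (r = 0.88 and 0.92), which include *Pmp22*, for a myelin protein of peripheral nerve. *Pmp22* was at 34.1 ± 3.97 TPM in siNT and 33.3 ± 10.8 TPM in siUBA1 muscles (SD, n = 4 each; adjusted p = 0.839 from limma). *Sox4*, *Sox11* and *Sox18* followed the fibroblast markers (r = 0.91, 0.93 and 0.86), led by *Gsn* (428 ± 36.0 and 423 ± 73.0 TPM) and the collagen gene *Col3a1* (263 ± 101 and 322 ± 143 TPM; SD, n = 4 each; adjusted p = 0.904 and 0.691 from limma). *Sox4* and *Sox11* also went with the leukocyte markers (r = 0.88 and 0.87), led by *Lyz2* (168 ± 85.6 and 174 ± 102 TPM) and *S100a9* (16.8 ± 9.42 and 22.4 ± 8.26 TPM; SD, n = 4 each; adjusted p = 0.999 and 0.488 from limma). *Sox18* had an r of -0.21 with the endothelial markers, *Sox7* of -0.34 and *Sox17* of -0.17. *Sox11* and *Sox4* went with the myogenic markers as well (r = 0.85 and 0.81), led by *Myf6* (135 ± 16.3 and 124 ± 19.4 TPM) and *Myod1* (23.8 ± 4.53 and 30.6 ± 7.27 TPM; SD, n = 4 each; adjusted p = 0.589 and 0.319 from limma). As the lists themselves vary together and share libraries, these r values do not assign a member to a cell type.

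**Figure D4:**
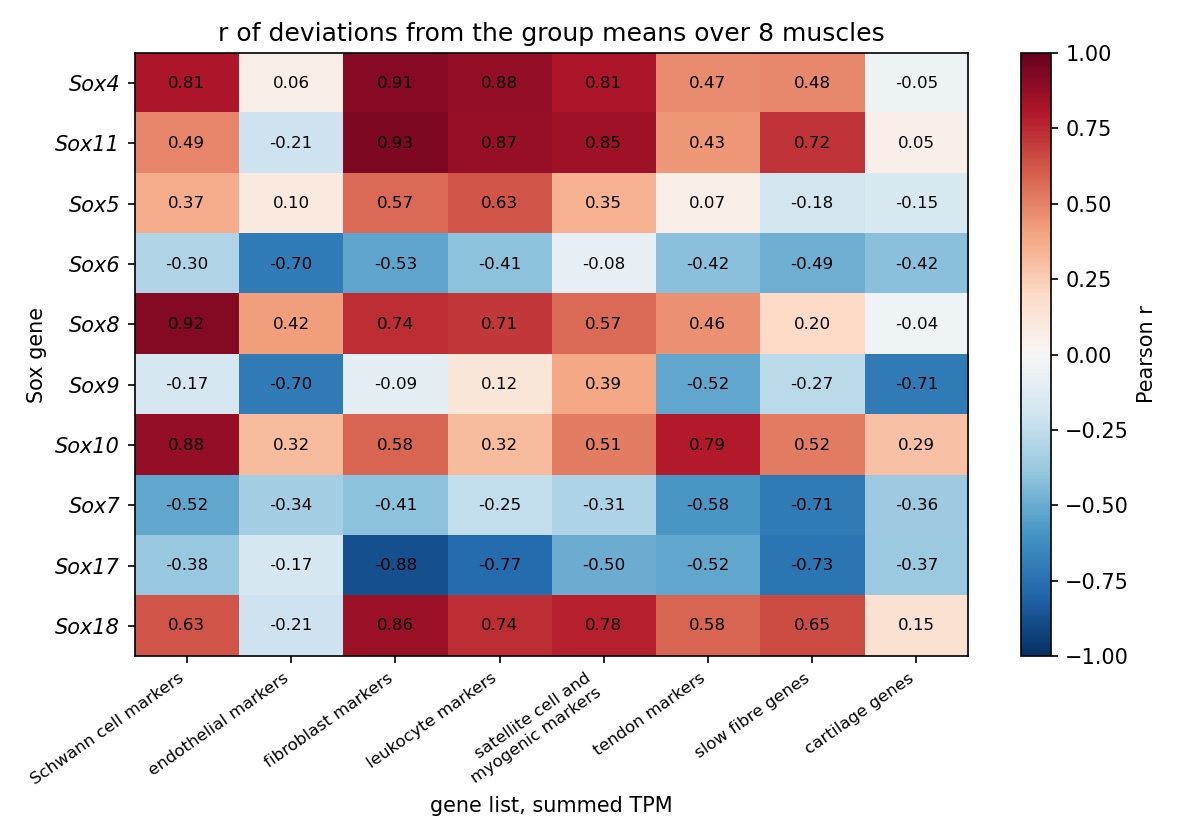
Pearson r (colour and number) between each member (rows) and the summed TPM of each gene list (columns), over the deviations of 8 muscles from their group means. *Sox4*, *Sox11* and *Sox18* share high values for fibroblast markers (0.86 to 0.93), *Sox8* and *Sox10* for Schwann cell markers (0.92 and 0.88), and no SOXF gene has a positive r with endothelial markers.

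No difference of these lists between the groups passed a test. Of the Schwann cell markers, 9 of 16 passed the filter and 0 the adjusted p, and the sum ranged from 85.1 to 120 TPM in siNT and 67.5 to 135 TPM in siUBA1 muscles (exact permutation test, two-sided, p = 0.971). The corresponding sums of 12 fibroblast markers, all tested, were 1030 to 1751 and 1137 to 2096 TPM (exact p = 0.429). For leukocyte markers, 9 of 14 were tested and the sums were 134 to 362 and 142 to 412 TPM (exact p = 0.943), with the B cell marker *Ms4a1* and the T cell marker *Cd3e*, named after their values were seen, at 0.104 TPM or less. Of the satellite cell and myogenic markers 10 of 12 were tested, and the sums were 208 to 247 and 180 to 265 TPM (exact p = 0.914). Of the tendon markers 7 of 8 were tested (exact p = 0.343), led by *Thbs4* (92.5 ± 28.3 and 106 ± 27.5 TPM) and *Fmod* (41.9 ± 18.9 and 57.8 ± 6.68 TPM; SD, n = 4 each; adjusted p = 0.639 and 0.297 from limma). No gene of these 5 lists passed the adjusted p (limma). An unadjusted P under 0.05 was found for 1 of 9 Schwann cell, 2 of 12 fibroblast, 0 of 9 leukocyte, 4 of 10 myogenic and 2 of 7 tendon genes tested, beside 18% of all genes. The shares of the myogenic and tendon genes were thus above that of all genes, which was not tested further. Adjusted over the 9 lists tested, each exact p of these 5 lists was 0.964 or more.

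The sequences before the transcription starts of *Sox4*, *Sox11* and *Sox8* are shown because *Sox4* varied together with both other members, while *Sox8* and *Sox11* had an r of 0.53 with each other. They are the 250 bases before the start, from RefSeq promoters of the GRCm38.p6 assembly, in the direction of the gene. This table held 5 of the 10 members, *Sox4*, *Sox5*, *Sox6*, *Sox8* and *Sox11*, and no entry for *Sox7*, *Sox9*, *Sox10*, *Sox17* and *Sox18*. Capitals mark CCAAT boxes (CCAAT or, on the other strand, ATTGG) and GC boxes (GGGCGG or CCGCCC), 2 frequent promoter motifs.
*Sox4* (chr13:28953700-28953949, minus strand): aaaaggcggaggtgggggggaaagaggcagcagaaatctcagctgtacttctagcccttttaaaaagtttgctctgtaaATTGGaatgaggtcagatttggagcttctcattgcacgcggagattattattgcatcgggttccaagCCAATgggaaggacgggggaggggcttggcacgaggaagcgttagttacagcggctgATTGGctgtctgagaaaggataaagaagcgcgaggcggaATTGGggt
*Sox11* (chr12:27342719-27342968, minus strand): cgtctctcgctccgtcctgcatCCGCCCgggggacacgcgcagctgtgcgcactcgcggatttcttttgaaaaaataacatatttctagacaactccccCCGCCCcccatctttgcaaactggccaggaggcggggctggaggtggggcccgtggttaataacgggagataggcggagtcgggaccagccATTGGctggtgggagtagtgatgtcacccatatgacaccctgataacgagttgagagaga
*Sox8* (chr17:25570687-25570936, minus strand): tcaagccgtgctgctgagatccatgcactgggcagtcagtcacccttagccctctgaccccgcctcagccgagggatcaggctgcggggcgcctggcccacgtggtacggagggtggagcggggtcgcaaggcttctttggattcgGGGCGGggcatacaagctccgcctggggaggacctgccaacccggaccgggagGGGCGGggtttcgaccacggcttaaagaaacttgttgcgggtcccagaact
The window of *Sox4* holds 4 CCAAT boxes and 0 GC boxes, that of *Sox11* 1 and 2, and that of *Sox8* 0 and 2. At least 1 CCAAT box occurs in 33.8% and at least 1 GC box in 32.7% of all 32851 windows of this length. None of the 3 windows holds the letters TATAAA or TTTATA of a TATA box, which are in 12.4% of all windows. The 3 genes therefore share no set of these motifs in this window, which says nothing about the factors that bind there.

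Of the 10 other genes of the family, *Sox12* (SOXC) and *Sox13* (SOXD) were the only ones above 0.1 TPM on average. *Sox13* was at 5.65, 5.35, 5.61 and 5.37 TPM in siNT muscles and at 5.52, 6.41, 6.43 and 6.55 TPM in siUBA1 muscles (log2FC 0.15, adjusted p = 0.293 from limma). *Sox12* was at 0.863 ± 0.249 and 0.968 ± 0.322 TPM (SD, n = 4 each; log2FC 0.07, adjusted p = 0.793 from limma). *Sry*, *Sox1*, *Sox3*, *Sox14* and *Sox21* were listed at 0 in all 8 muscles. *Sox2* reached 0.362 TPM in siUBA1 replicate 1 and 0.0960 TPM or less elsewhere, *Sox15* was above 0 in siUBA1 replicate 1 only, and *Sox30* was at 0.0439 TPM or less. *Sox13* made up most of the sum of the 10, which thus largely follows this gene. The sum was 6.06 to 6.68 TPM in siNT and 6.93 to 7.81 TPM in siUBA1 muscles (exact permutation test, two-sided, p = 0.0286, the smallest that 4 against 4 allow). This test, like those of the other lists, exchanges all 8 muscles and leaves out that they are pairs of legs. Within mice the exact p was 0.125, the smallest that 4 pairs allow, the adjusted value over the 9 lists was 0.257 without the pairing, and with median-ratio scaling the exact p was 0.514. No call is made from it.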

How the data were processed

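Total RNA of 8 mouse TA muscles was sequenced as paired-end reads from libraries that do not mark strand. Reads were trimmed by the authors and mapped to GRCm39 in CLC Genomics Workbench, and gene-level TPM, which have the same sum in each muscle, were deposited. The annotation, the filter on low values and the handling of reads that match several genes are not given in the sources used here. TPM were the only unit used, and 0 columns of values were left unassigned. The study itself compared logarithms of TPM by Kruskal-Wallis and Dunn's tests, and its protein data were not used here.

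Values were analysed as log2(TPM + 1) with limma 3.58.1 in R 4.3.3 (lmFit, eBayes with a trend) on all 8 muscles without covariates, for genes that reached 1 TPM in 4 or more muscles, with Benjamini-Hochberg adjustment over all genes tested. Because the deposited values are TPM, no count model was used. Read numbers were estimated from the step of each gene's TPM over the 8 muscles (whole within 0.03 of a read), approximately for *Sox6*, and depend on that fit. With GENCODE exon lengths alone, 37.0% to 38.7% of values under 10 reads were whole within 0.01. Summed lists were compared with exact permutation tests on log2 sums over the 8 muscles, and, as an alternative chosen after seeing the data, within mice. The fit was checked on data made with known differences. Same-numbered muscles are the legs of the same mouse, according to the study, and their deviations correlated at -0.0004, 0.20, 0.58 and 0.54 across genes.

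Members and lists were chosen with earlier results of these data known, partly from those results. Named were every member, *Uba1*, the 3 genes most like each tested member, the 2 most abundant genes of each list and any gene with an adjusted p under 0.05, and other family genes above 0.1 TPM. Some genes that this rule selects are not reported here. Alternatives were a pseudocount of 0.1, no filter, a mean of 5 TPM, median-ratio scaling, quantile normalization, TPM without mitochondrial genes, a replicate block with and without median-ratio scaling, a Kruskal-Wallis test, leaving out each muscle, and log2 values without removal of group means for the genes most alike. Gene positions are from GENCODE M39. With 4 muscles against 4, no exact p can be below 0.0286, and intervals of counting cover counting error only.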

Additional observations from a re-analysis of the deposited data

Results flagged for a closer look

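*Sox10* in siNT replicate 1 was at 1.5 TPM, apart from the 3 other siNT muscles at 0.832 to 0.889 TPM. Its gap to the nearest muscle was 0.915 of the range of the group. Among 40 groups of 4 muscles examined in the same way, it was the only such value, while 2 would be found at a chance rate of 1 in 20. The siUBA1 muscle of the same mouse had the highest *Sox10* level of its group (1.67 TPM), and siNT replicate 1 also had the highest sum of Schwann cell markers of the siNT group (120 TPM). Whether these go together was not tested.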

How the results depend on the processing

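*Sox9*, *Sox7*, *Sox18* and *Sox4* kept the sign of their log2FC under each alternative that kept them in the fit. *Sox6* turned to -0.03 with median-ratio scaling, with and without the block, and *Sox17* to -0.01 with quantile normalization. The count of members lower at the criterion of the study was 1, and 0 with the filter at a mean of 5 TPM, which drops *Sox9*, with a range of 0 to 1 when muscles were left out in turn. Members higher at it numbered 0 under all alternatives. With group means kept, the r of *Sox7* with *Cacna1s* moved from 0.985 to 0.769 and that of *Sox9* with *Glt28d2* from 0.975 to 0.849. The r of *Sox4*, *Sox6*, *Sox17* and *Sox18* with the gene most like each stayed at 0.925 or more.

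Across all genes, 3 had an adjusted p under 0.05, against 28 with quantile normalization and 28 with median-ratio scaling, 11 with the filter at a mean of 5 TPM, 13 without mitochondrial genes, 0 with the Kruskal-Wallis test (2210 at an unadjusted P under 0.05) and 2 to 39 with each muscle left out. With the replicate block, which pairs the legs of a mouse, 57 genes passed, and 82 with the block and median-ratio scaling. The block changed the call of *Uba1* and of no member. The standard errors printed for the members come from the fit without pairs. With the block they were smaller for each, at 0.118 for *Sox4*, 0.0756 for *Sox6*, 0.0888 for *Sox7*, 0.174 for *Sox9*, 0.0692 for *Sox17* and 0.0957 for *Sox18*. Exact permutations of the summed lists within mice, which cannot give a p below 0.125 and so cannot pass 0.05, gave 0.125 to 1. Genes higher at the criterion numbered 51, and 151 with a pseudocount of 0.1, 28 with quantile normalization, 29 with median-ratio scaling, 20 with the filter at a mean of 5 TPM, 87 without mitochondrial genes and 51 to 82 with a muscle left out. Genes lower at it numbered 96, and 159 with the replicate block and median-ratio scaling. Of all genes tested, 81.84% had a log2FC above 0, against 47.96% with median-ratio scaling and 54.64% with quantile normalization. With median-ratio scaling, the summed differences of endothelial markers, slow fibre genes and leukocyte markers changed sign, to -0.10, -0.04 and -0.09 on the log2 scale. The cause of these shifts was not tested.

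The 4 muscles per group limit the precision, as do the few reads of *Sox5*, *Sox8*, *Sox10* and *Sox11*.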
